A study of Mus musculus with 26 samples.

Results

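The comparison set 4 RNA-seq libraries from mouse microglia labelled Tmem106b KO Grn WT against 4 labelled Tmem106b HET Grn WT, 8 of the 26 libraries in the series. The members were chosen by genotype label alone, with earlier results of these data known. It addresses what the loss of the second copy of Tmem106b adds in microglia whose Grn gene is intact. The KO group held 1 female and 3 male libraries, and the HET group 2 of each. Dissection was labelled Entire in 3 KO and 2 HET libraries and Hemi in 1 KO and 2 HET libraries, with no further explanation of these words. The 3 libraries labelled Tmem106b WT Grn WT are given beside the results as a reference level. No treatment was named. Mouse age, the design of the Tmem106b and Grn alleles and the method of isolating microglia are not given in the sources used here. Nothing in the labels ties a library to its own mouse, so p-values measure only the spread between these libraries, which may be technical.

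TMEM106B is a membrane glycoprotein of late endosomes and lysosomes. It takes part in the acidification, positioning and size of lysosomes, and variants of the human gene are associated with frontotemporal lobar degeneration, in particular where progranulin, the product of GRN, is reduced. Microglia are the resident macrophages of the brain. They hold much of the brain's lysosomal transcript load and can move from a homeostatic state, marked by genes such as P2ry12 and Tmem119, to a disease-associated state marked by Apoe, Spp1, Gpnmb and Lgals3.

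Total counts in the 8 libraries were 38.6 to 58.3 M. Gene levels are given below as CPM, counts relative to library size, scaled by TMM, a factor that corrects for library composition, and log2 fold changes are KO minus HET from edgeR's quasi-likelihood fit with sex and dissection as covariates. Sums over marker lists are in CPM of the plain library total. Chi-square values per gene were 127 to 1353 over the 12 pairs of libraries within a group, so no library looked like a repeat of another. All 10 microglia markers and all 10 oligodendrocyte and 12 neuron markers were above 0 CPM in each of the 8 libraries.

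KO replicate 2 and HET replicate 3 stood apart from the others. Both were labelled Hemi, as was HET replicate 4, and KO replicate 2 was the only Hemi library of the KO group. Microglia markers summed to 53328, 10015, 42847 and 54114 CPM in KO replicates 1 to 4 and to 49275, 56161, 38119 and 49480 CPM in HET replicates 1 to 4. KO replicate 2 was thus far below the other 7 libraries. Neuron markers summed to 317, 9467, 1388 and 383 CPM in the KO and to 92.2, 101, 859 and 1632 CPM in the HET libraries, with KO replicate 2 the highest. The Hemi HET libraries, at 859 and 1632 CPM, thus lay above the Entire HET libraries. In WT the Hemi library held 1739 CPM and the Entire libraries 131 and 146 CPM. KO replicate 3, an Entire library, held 1388 CPM. Oligodendrocyte markers summed to 1952, 693, 833 and 2194 CPM in the KO and to 7575, 555, 26719 and 2153 CPM in the HET libraries, with HET replicate 3 the highest. Endothelial markers summed to between 13.3 and 276 CPM in KO and between 57.5 and 936 CPM in HET, and 7 of 10, Cldn5 among them, were at 0 in 1 or more of the 8 libraries. T and NK cell markers summed to 18.0 to 212 CPM in the KO and 10.5 to 104 CPM in the HET libraries. Exact two-sided permutation tests of the marker sums over 70 splits gave p = 0.314 for neurons, 0.343 for oligodendrocytes and 0.657 for microglia. The smallest p of this test, 0.0286, cannot pass an adjustment over 19 lists on its own, so the test says nothing on whether the lists differed. In the edgeR fit with its covariates, all 12 neuron markers had values above 0 in KO, with a median log2 fold change of 2.39. Of these, 10 of 12 had an unadjusted p under 0.05 with higher values (10.6% over all genes). DESeq2 called 10 higher (6.85% over all genes). The neuron median was 2.14 without KO replicate 2 and HET replicate 3. All 10 oligodendrocyte markers had values below 0, with a median of -2.63, and of -0.88 without the 2 libraries. Of these, 9 of 10 had an unadjusted p under 0.05 with lower values (8.13% over all genes). DESeq2 called 3 lower (2.34% over all genes). In bulk RNA, fewer cells of a type and less RNA per cell cannot be told apart. Results are therefore also given without KO replicate 2 and HET replicate 3, an alternative chosen after seeing the data. It left only Entire libraries in the KO group, while HET replicate 4 was Hemi. Leaving out these libraries therefore cannot be told apart from a change in dissection.

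**Figure D1:**
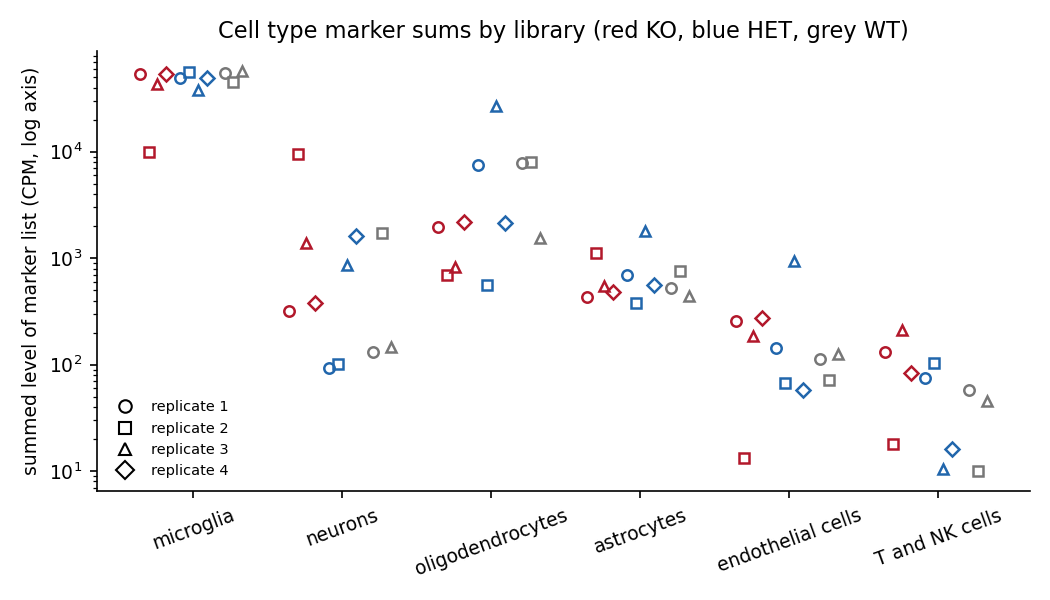
Summed level of 6 cell type marker lists in each library (CPM, log axis), with KO in red, HET in blue and WT in grey and 1 symbol per replicate number. KO replicate 2 lies lowest for microglia (10015 CPM) and highest for neurons (9467 CPM), and HET replicate 3 lies highest for oligodendrocytes (26719 CPM).

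Tmem106b (ENSMUSG00000029571) lies on chromosome 6, 13069759 to 13089269, plus strand, GRCm38. The targeted gene is shown first because it checks the labels, and the 250 bases before its annotated start in RefSeq (GRCm38.p6, chr6:13069509-13069758, plus strand, 5′ to 3′) are printed to show the promoter of the gene compared here. Capitals mark GCGCATGC, the core of the NRF1-type palindrome.
Tmem106b: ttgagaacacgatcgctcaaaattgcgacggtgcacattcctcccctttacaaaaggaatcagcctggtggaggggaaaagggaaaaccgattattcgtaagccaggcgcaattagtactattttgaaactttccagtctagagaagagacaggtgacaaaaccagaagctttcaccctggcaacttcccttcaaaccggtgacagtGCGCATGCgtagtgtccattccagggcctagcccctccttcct
The capitals span bases 43 to 36 before the start. Searched on both strands, these 8 letters are in 741 of 32851 upstream windows of that length (2.26%) in the RefSeq table. A match of letters is a description only. The deleted part of the gene was not given, and counts per gene do not show whether this stretch is intact in the KO.

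Tmem106b transcripts were at 24.01, 26.7, 26.4 and 35.7 CPM in KO replicates 1 to 4 and at 71.8, 46.3, 83.4 and 39.1 CPM in HET replicates 1 to 4. All 4 KO libraries lay below all 4 HET libraries, although KO replicate 4 and HET replicate 4 were close. WT libraries held 88.6, 68.7 and 75.5 CPM. The means were 28.2 ± 5.13 CPM in KO (SD, n = 4) and 60.2 ± 20.9 CPM in HET (SD, n = 4), so the KO libraries kept 46.8% of the HET level. The log2 fold change was -1.19 (SE 0.21), with an edgeR adjusted p of 0.0941 that missed the threshold of 0.05. The exact two-sided permutation test of this gene alone gave p = 0.0286, the smallest that 4 against 4 can give. The DESeq2 Wald test on the same counts put it past the threshold (adjusted p = 8.19e-05), and so did edgeR without HET replicate 4 (0.0135) or without KO replicate 4 (0.0201). Among other edgeR settings, it missed without covariates (0.354) and with the 8 libraries alone and no covariates (0.784). It also missed with marker sums as covariates (0.984) and within Entire libraries (0.300). Against WT, the KO libraries gave a log2 fold change of -1.49 (SE 0.22) that passed in edgeR (adjusted p = 0.0275). Within Entire libraries the KO minus HET value was -1.28. Hemi libraries held 26.7 CPM in the 1 KO and 83.4 and 39.1 CPM in the 2 HET libraries. Reads counted to Tmem106b thus remained in every KO library, and the counts do not show which exons they came from.

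**Figure D2:**
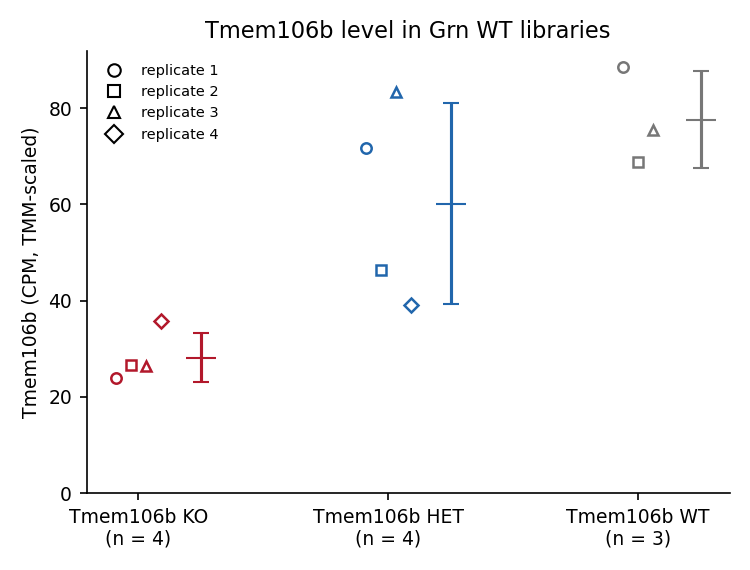
Tmem106b level (CPM, TMM-scaled) in each Grn WT library by Tmem106b genotype, with 1 symbol per replicate and bars for the mean and SD. The 4 KO libraries sit between 24.01 and 35.7 CPM, below the 4 HET libraries at 39.1 to 83.4 CPM.

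The nearest tested protein-coding genes on chromosome 6, 4 on each side of Tmem106b, lay between 320 kb (Thsd7a) and 3821 kb (Nxph1) away. None of these 8 genes passed in edgeR. Ndufa4, a cytochrome c oxidase-associated subunit, was at 88.9, 271, 103 and 46.6 CPM in KO and at 41.7, 39.5, 46.5 and 64.3 CPM in HET replicates 1 to 4. Its log2 fold change was 1.46 (SE 0.34, edgeR adjusted p = 0.0941), and KO replicate 4 lay within the HET range. Like Tmem106b it passed in DESeq2 (adjusted p = 0.00128), with quality weights (0.038) and in edgeR without KO replicate 4 (0.0201). Bmt2, a regulator of mTORC1 signalling, had a log2 fold change of -0.41 and Phf14, a chromatin protein, of -0.33. The other 5 of these 8 genes were Nxph1 (1.996), Thsd7a (0.77), Tmem168 (-0.61), Gpr85 (1.51) and 2610001J05Rik (0.19). In all 8 the KO and HET libraries overlapped.

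Across all genes, edgeR called 0 of 21371 genes at an adjusted p under 0.05 (0%). Unadjusted p-values were under 0.05 for 4002 genes (18.7%), of which 2264 had higher values in KO (10.6%) and 1738 lower values (8.13%). All 4 KO libraries lay above all 4 HET libraries for 563 genes (2.63%) and below them for 330 (1.54%). DESeq2 called 1463 genes higher (6.85%) and 501 lower (2.34%), limma-voom called 0, and limma-voom with sample quality weights called 349 higher (1.63%) and 397 lower (1.86%). Without KO replicate 4, the KO library closest to the HET libraries in several of the genes below, edgeR called 602 genes higher (2.82%) and 526 lower (2.47%). Without KO replicate 2 it called 0, and the unadjusted counts were 1358 higher (6.4%) and 808 lower (3.81%). Without KO replicate 2 and HET replicate 3 it called 0, with 1276 higher (6.05%) and 955 lower (4.53%) unadjusted. The lists below are read against these shares.

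Of the genes of smallest p with higher values in KO, several are known from neurons. Sncg, a synuclein of neurons, was at 1.39, 41.8, 12.7 and 1.88 CPM in KO and at 0.455, 0.110, 2.67 and 0.663 CPM in HET replicates. Bex1, a small neuronal protein, was at 6.34, 139, 15.5 and 4.86 CPM against 1.07, 1.61, 13.4 and 7.42 CPM. Thy1, a neuronal and T cell surface protein, Ppp1r1a, a phosphatase inhibitor, and Tmem158 had log2 fold changes of 2.20, 2.95 and 2.39. In each of these 5 genes KO replicate 2 was the highest of the 8 libraries, as for the neuron marker sum, and the part of neuronal RNA in these values was not tested. The other genes of this set encode organelle or nuclear proteins: Nop10 of the small nucleolar ribonucleoproteins, Mrps18a of the mitochondrial ribosome, Mphosph8, a silencing factor that binds methylated histone H3, and Atp5j of the ATP synthase. Nop10 was at 60.7, 89.6, 61.4 and 35.05 CPM in KO and 28.5, 24.6, 30.0 and 31.8 CPM in HET libraries, without overlap (log2 fold change 1.21, SE 0.25, edgeR adjusted p = 0.0941). Atp6v0c-ps2 is annotated as a processed pseudogene of the proton pump gene Atp6v0c and may share reads with it. It was at 20.3, 31.1, 17.1 and 14.3 CPM in KO and 6.22, 7.10, 8.80 and 8.63 CPM in HET libraries (1.49, SE 0.27, adjusted p = 0.0941). Nop10, Mrps18a, Mphosph8, Atp5j and Atp6v0c-ps2 were likewise highest in KO replicate 2. The part of neuronal RNA in their values was not tested either.

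Tmem106b led the 10 genes of smallest p with lower values in KO. Of the others, Pwwp2a, a chromatin reader, was at 57.2, 23.6, 71.4 and 63.1 CPM in KO and at 96.6, 99.1, 95.8 and 91.6 CPM in HET libraries. Ago3, an Argonaute protein of the small RNA pathway, was at 15.7, 6.46, 15.7 and 15.5 CPM against 28.3, 27.4, 22.5 and 28.3 CPM. Rb1, the retinoblastoma cell cycle regulator, was at 23.4, 20.1, 40.1 and 42.7 CPM against 60.9, 57.2, 66.4 and 51.5 CPM. The groups did not overlap in these 3 genes, and their log2 fold changes were -1.06, -1.05 and -1.08 (edgeR adjusted p = 0.0941 for each). For Ago3 the WT libraries, at 18.2, 18.0 and 14.2 CPM, lay outside the HET range and near the KO libraries. Tbc1d14, a regulator of autophagosome formation, was at 108, 74.3, 140 and 179 CPM in KO and 199, 228, 227 and 223 CPM in HET libraries (-1.06, SE 0.25). Zfp869, Zfp740, Arhgef10l, Zzz3 and Tsc22d2 had log2 fold changes between -1.08 and -0.81.

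Among disease-associated microglia genes, 1 of 31, Gpnmb, had all 4 KO libraries above all 4 HET libraries (2.63% over all genes). None of 31 passed in edgeR, 6 had an unadjusted p under 0.05 with higher values in KO (10.6% over all genes) and 0 with lower values, and the median log2 fold change was 0.12 against -0.03 over all genes tested. Without KO replicate 2 and HET replicate 3 the median was 0.41. In that fit 9 of 31 had an unadjusted p under 0.05, all with higher values (6.05% over all genes). Gpnmb, a lysosome-associated glycoprotein of phagocytic macrophages, was at 118, 33.6, 190 and 89.2 CPM in KO replicates 1 to 4 and at 28.1, 12.6, 1.43 and 2.86 CPM in HET replicates 1 to 4. WT libraries held 4.14, 1.75 and 8.90 CPM. Every KO library lay above every HET and WT library, KO replicate 2 with its low microglia sum included. The mean was 108 ± 65.2 CPM in KO and 11.2 ± 12.3 CPM in HET (SD, n = 4 each), a ratio of 9.59. The log2 fold change was 3.48 (SE 0.94, unadjusted p = 0.00138, edgeR adjusted p = 0.0953), 3.20 without the 2 libraries and 2.04 within Entire libraries, and DESeq2 gave an adjusted p of 0.00071.

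Lgals3, the galectin that marks damaged lysosomes, was at 145, 38.3, 145 and 82.9 CPM in KO and at 52.9, 48.8, 19.95 and 22.1 CPM in HET replicates. WT libraries held 44.1, 41.7 and 42.5 CPM. KO replicates 1, 3 and 4 lay above all HET and WT libraries and KO replicate 2 did not. The log2 fold change was 1.49 (SE 0.37, edgeR adjusted p = 0.0941) and 1.59 without the 2 libraries. Cst7, the cystatin F inhibitor of lysosomal proteases, was at 142, 17.8, 144 and 117 CPM in KO and at 43.1, 42.6, 16.8 and 33.1 CPM in HET replicates (1.44, SE 0.50, adjusted p = 0.143). Spp1, which encodes osteopontin, was at 793, 107, 753 and 616 CPM against 424, 265, 114 and 235 CPM (1.30, SE 0.45, adjusted p = 0.145). Apoe, the main lipid carrier of the brain, was at 16748, 3400, 12935 and 9956 CPM against 7349, 5305, 4507 and 3279 CPM (0.93, SE 0.40, adjusted p = 0.226). These 3 genes shared one arrangement: KO replicates 1, 3 and 4 lay above all 4 HET libraries and KO replicate 2 lay among them or below. Without the 2 libraries their log2 fold changes were 1.67, 1.501 and 1.25. Lpl, a lipoprotein lipase, was at 329, 34.6, 151 and 194 CPM against 150, 102, 50.9 and 86.7 CPM (0.90, SE 0.48). It had the same arrangement, KO replicate 3 by a narrow margin.

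Other genes of the same state had smaller fitted values. Clec7a, a pattern receptor, was at 208, 12.1, 151 and 104 CPM in KO and at 87.7, 88.4, 29.7 and 87.2 CPM in HET replicates (0.43, SE 0.52). As for Cst7, Spp1 and Apoe, all KO libraries but replicate 2 lay above all HET libraries, and KO replicate 2 lay below them. Axl, a receptor for dying cells, had a log2 fold change of 0.24 (SE 0.38) and Itgax, an integrin, of 0.37 (SE 0.81). The receptor gene Trem2 and its adaptor Tyrobp, which the state depends on, had values of -0.25 (SE 0.33) and 0.08 (SE 0.36). None passed the threshold, and a p that misses the threshold does not show that the levels are alike.

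**Figure D3:**
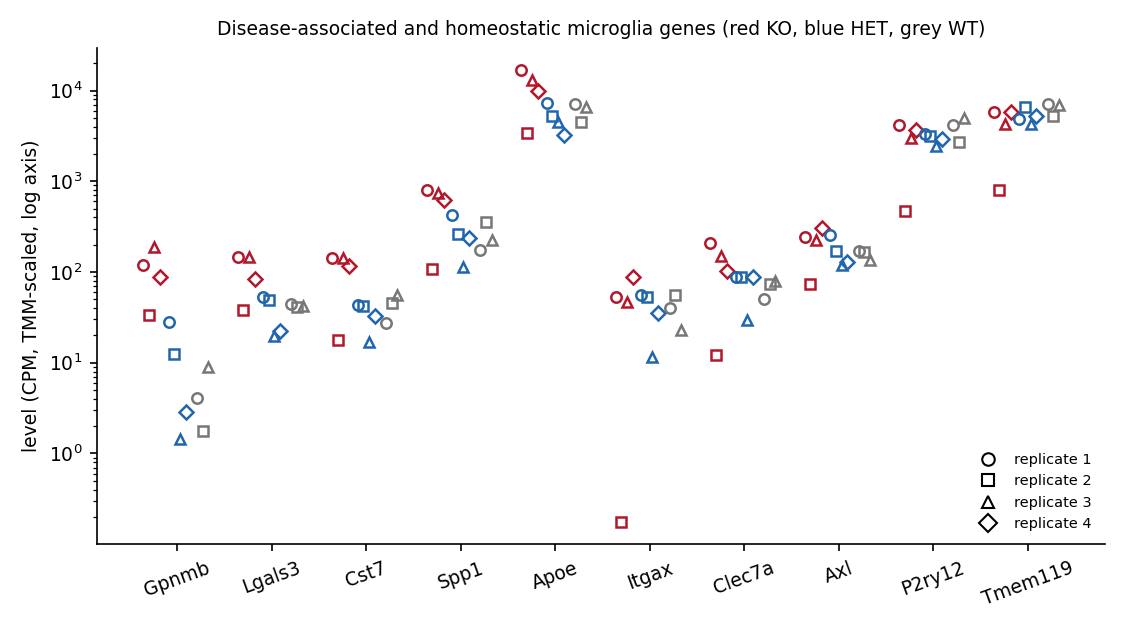
Level of 8 disease-associated genes and of the homeostatic genes P2ry12 and Tmem119 in each library (CPM, TMM-scaled, log axis), with KO in red, HET in blue and WT in grey. For Gpnmb all 4 KO libraries (33.6 to 190 CPM) lie above the HET (1.43 to 28.1 CPM) and WT libraries, while KO replicate 2 lies lowest for P2ry12 and Tmem119.

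Homeostatic microglia genes had lower fitted values in KO for all 22 members, with a median of -0.73, and 14 of 22 had an unadjusted p under 0.05 (8.13% over all genes). None passed in edgeR and DESeq2 called 5 lower (2.34% over all genes). The median was -0.36 without KO replicate 2 and HET replicate 3. In that fit 6 of 22 had an unadjusted p under 0.05, all lower (4.53% over all genes). Within Entire libraries the median was -0.12. The 10 markers of microglia as a cell type had a median of -0.59 and likewise all lay below 0, and their part in the homeostatic values was not tested. Tmem119 was at 5863, 807, 4250 and 5887 CPM in KO and 4875, 6674, 4280 and 5318 CPM in HET replicates (-0.76, SE 0.34). P2ry12, a purine receptor, was at 4158, 476, 2977 and 3667 CPM against 3322, 3168, 2448 and 2939 CPM (-0.54, SE 0.35). In both genes KO replicate 2 was far below the HET range, as for the microglia marker sum. For Tmem119, KO replicate 3 lay just below that range and KO replicates 1 and 4 inside it. For P2ry12, KO replicates 1 and 4 lay above the HET range and KO replicate 3 inside it. Without the 2 libraries the values of Tmem119 and P2ry12 were -0.37 and -0.12. Csf1r, the growth factor receptor that microglia need to survive, was at 11646, 2086, 8018 and 14544 CPM against 13650, 18896, 9978 and 14161 CPM (-1.02, SE 0.34, edgeR adjusted p = 0.133). Sall1, a transcription factor of microglial identity, was at 172, 39.4, 244 and 392 CPM against 434, 440, 288 and 393 CPM (-1.22, SE 0.43), and KO replicate 4 lay inside the HET range for both.

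Lysosomal genes, whose products share the compartment of TMEM106B, had medians between -0.45 and -0.28 over 3 lists. Within Entire libraries the medians were -0.15 for hydrolases, 0.16 for cathepsins and 0.01 for lysosomal membrane proteins. The part of the low microglia marker sum of KO replicate 2 in these values was not tested. Of 35 lysosomal hydrolases 29 had values below 0, with a median of -0.45. Of these 35, 12 had an unadjusted p under 0.05 with lower values (8.13% over all genes), 1 with higher values (10.6%), and none passed. Without KO replicate 2 and HET replicate 3 the median was -0.24. In that fit 2 of 35 had an unadjusted p under 0.05, both lower (4.53% over all genes). Psap, the precursor of the saposins, was at 4127, 1881, 3859 and 6523 CPM in KO and 4730, 5845, 4175 and 4454 CPM in HET replicates (-0.45, SE 0.25). Arsb, a sulfatase, had a log2 fold change of -0.77 (SE 0.25). The 13 cathepsins had a median of -0.31, which was -0.03 without the 2 libraries, and 0 of 13 had an unadjusted p under 0.05. Ctsd, an aspartic protease, was at 20382, 2759, 13373 and 16251 CPM against 13654, 17654, 8665 and 13513 CPM (-0.39, SE 0.34).

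Among 27 lysosomal membrane proteins 23 had values below 0 (median -0.28, or -0.15 without the 2 libraries). At an unadjusted p under 0.05, 5 were lower (8.13% over all genes) and 1 higher (10.6%). Npc1, the cholesterol exporter of lysosomes, was at 62.9, 27.3, 62.6 and 69.8 CPM in KO and 77.7, 74.9, 79.0 and 77.9 CPM in HET replicates, without overlap (-0.67, SE 0.25, edgeR adjusted p = 0.162). Mcoln3, a calcium channel of endolysosomes, was at 1.36, 0, 4.93 and 3.81 CPM in KO and at most 0.898 CPM in HET libraries (3.19, SE 1.22, adjusted p = 0.179). It was at 0 in all 3 WT libraries. Its relative Mcoln1 had a value of -0.16 (SE 0.13).

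Vacuolar ATPase subunits, which build the proton pump of lysosomes and include partners reported for TMEM106B, had a median of 0.56. Of 20 subunits 11 had an unadjusted p under 0.05 with higher values (10.6% over all genes) and 2 with lower values (8.13%). None passed in edgeR, and DESeq2 called 7 higher (6.85% over all genes) and 1 lower (2.34%). The list summed to 4131, 8927, 4672 and 3825 CPM in KO and to 3684, 3911, 3845 and 4340 CPM in HET replicates, so KO replicate 2 was the highest and KO replicates 1 and 4 lay within the HET range. Atp6v1d, a stalk subunit of the pump, was at 139, 374, 151 and 114 CPM in KO and 87.4, 81.1, 106 and 108 CPM in HET replicates, without overlap (1.06, SE 0.25, edgeR adjusted p = 0.0941; 0.64 without the 2 libraries). Atp6v1g2, a subunit of neurons, was at 45.5, 678, 136 and 31.3 CPM against 12.5, 14.01, 78.1 and 102 CPM (2.59, SE 0.66). Tcirg1, the subunit of macrophages and osteoclasts, had a value of -0.56 (SE 0.26). Without the 2 libraries the median was 0.32, and 5 of 20 had an unadjusted p under 0.05 with higher values (6.05% over all genes). With marker sums as covariates the median was 0.16. The part of neuronal RNA in the list was not tested.

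Members of the TMEM106 family and the proteins reported to bind TMEM106B had a median of -0.07 over 9 genes. Tmem106b was the 1 gene among them without overlap, with KO below HET (1.54% over all genes). Tmem106a was at 126, 26.8, 92.7 and 91.8 CPM in KO and 77.1, 109, 33.6 and 50.7 CPM in HET replicates (0.04, SE 0.28). Tmem106c was at 47.5, 58.4, 63.9 and 66.0 CPM against 50.2, 70.1, 60.2 and 68.5 CPM (-0.14, SE 0.19). Neither paralog thus differed beyond the spread of the libraries. Chmp2b, an ESCRT subunit, had a value of 0.11 (SE 0.20) and Atp6ap1, an accessory subunit of the proton pump, of -0.07 (SE 0.16).

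Grn was at 4470, 554, 2215 and 3347 CPM in KO and at 2915, 4048, 2075 and 2881 CPM in HET replicates, and the groups overlapped. KO replicate 2 was the lowest. The means were 2646 CPM in KO and 2980 CPM in HET. The fitted log2 fold change had the other direction, at 0.19 (SE 1.14, edgeR adjusted p = 0.95, exact permutation p = 0.686). The fit also held the Grn KO libraries, with group means of 3.23 and 4.84 CPM. Its SE is thus not the spread among the 8 libraries alone, and the part of the Grn KO libraries in it was not tested. Sort1, the sortilin receptor that takes up progranulin, was at 120, 95.2, 128 and 300 CPM in KO and at 332, 324, 317 and 303 CPM in HET replicates. Its 4 KO libraries lay below the 4 HET libraries, KO replicate 4 by a narrow margin (-1.08, SE 0.33, adjusted p = 0.118; -0.90 without the 2 libraries). WT libraries held 396, 243 and 209 CPM, below and above the HET range.

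Transcription factors of the MiT/TFE family, which switch on lysosomal genes, gave values of -0.75 for Tfeb (SE 0.41), -0.63 for Tfe3 (SE 0.29) and -0.60 for Mitf (SE 0.39), none past the threshold. The list of these factors with nutrient sensing and autophagy genes had a median of 0.01. At an unadjusted p under 0.05, 7 of 35 were higher (10.6% over all genes) and 5 lower (8.13%). Flcn, the folliculin that controls TFE3 and TFEB through the lysosomal Rag GTPases, was at 248, 131, 197 and 248 CPM in KO and 310, 369, 218 and 281 CPM in HET replicates (-0.57, SE 0.14, edgeR adjusted p = 0.0941). The groups overlapped, and without the 2 libraries the value was -0.54. Rragb, a Rag GTPase abundant in neurons, was at 11.1, 251, 51.8 and 18.7 CPM against 8.79, 2.69, 50.3 and 27.5 CPM. In the RefSeq upstream windows the E-box core CACGTG, to which MiT/TFE factors bind, was in 6.02% of all 32851 windows, in 7 of 33 windows of hydrolases and in 6 of 26 of lysosomal membrane proteins.

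Oxidative phosphorylation genes had the highest median of the 23 pathway lists. All 27 had values above 0, with a median of 1.01, and 22 had an unadjusted p under 0.05 (10.6% over all genes). None passed in edgeR and DESeq2 called 20 higher (6.85% over all genes). Without KO replicate 2 and HET replicate 3 the median was 0.77. There 19 of 27 had an unadjusted p under 0.05, all higher (6.05% over all genes). Within Entire libraries the median was 0.96. With marker sums as covariates it was 0.58. The list summed to 4530, 11130, 5189 and 3491 CPM in KO and to 3209, 3164, 4585 and 4220 CPM in HET replicates, highest in KO replicate 2 as for neuron markers, and the part of neuronal RNA in it was not tested. Cox6c, a cytochrome c oxidase subunit, was at 90.3, 201, 104 and 56.7 CPM in KO and 50.5, 32.2, 60.8 and 63.8 CPM in HET replicates (1.24, SE 0.28, edgeR adjusted p = 0.0941). Ndufb3, a complex I subunit, was at 25.1, 38.3, 24.95 and 14.9 CPM against 11.9, 10.4, 14.1 and 14.7 CPM (1.08, SE 0.24, adjusted p = 0.0941). KO replicates 1, 2 and 3 lay above the HET range in both genes, and KO replicate 4 lay inside it for Cox6c and just above it for Ndufb3.

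These genes are short, with a median exonic width of 875 bases, and the fold changes followed gene width. Over genes with a mean of at least 5 CPM, the median log2 fold change was 0.26 in the shortest of 5 equal groups (87 to 1856 bases) and -0.06, -0.20, -0.32 and -0.29 in the next 4. All 4 KO libraries lay above all 4 HET libraries for 118 of 2274 genes of the shortest group and below them for 7. In the longest group, of 2271 genes, the counts were 7 above and 84 below. In the groups between, of 2268, 2272 and 2270 genes, 53, 19 and 16 were above and 19, 47 and 80 below. Over all genes tested, those under 5 CPM included, the shares were 2.63% above and 1.54% below. Against the HET mean, the shortest group stood at 0.48, 0.15, 0.28 and 0.07 in KO replicates 1 to 4 and the longest group at -0.50, -0.29, -0.25 and 0.02. The HET libraries stood between -0.14 and 0.08 in both groups. KO replicates 1, 2 and 3 thus carried the pattern, and KO replicate 4 was close to the HET libraries. The part of gene width in the values of any list was not tested.

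**Figure D4:**
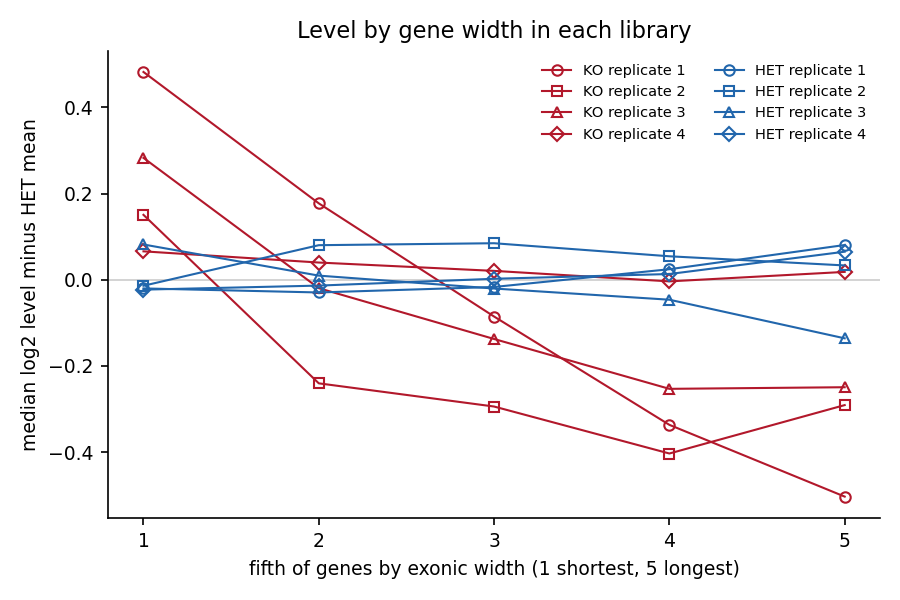
Median log2 level relative to the HET mean in 5 groups of genes ordered by exonic width, 1 line per library (KO red, HET blue). KO replicates 1, 2 and 3 run from above 0 in the shortest genes (0.15 to 0.48) to below 0 in the longest (-0.50 to -0.25), while KO replicate 4 stays near 0.

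TGF-beta pathway genes, which maintain the homeostatic state of microglia, had the lowest median, -0.86 over 20 tested of 22. Of these 7 had an unadjusted p under 0.05, all with lower values (8.13% over all genes). None passed in edgeR, and DESeq2 called 3 lower (2.34% over all genes). The receptor gene Tgfbr1 was at 663, 165, 609 and 1220 CPM in KO and 1360, 1305, 807 and 1153 CPM in HET replicates (-1.22, SE 0.39, edgeR adjusted p = 0.123). Its partner Tgfbr2 was at 557, 106, 455 and 878 CPM against 732, 925, 589 and 867 CPM (-1.08, SE 0.39). KO replicates 1, 2 and 3 lay below the HET range in both genes and KO replicate 4 lay inside it. The list's median exonic width was 5065 bases, so it sits at the other end of the width pattern from oxidative phosphorylation. Without KO replicate 2 and HET replicate 3 the median was -0.50. There 4 of 20 had an unadjusted p under 0.05, all lower (4.53% over all genes).

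Glycolysis genes had a median of 0.62, of 0.36 without the 2 libraries and of 0.19 with marker sums as covariates. At an unadjusted p under 0.05, 11 of 20 were higher (10.6% over all genes) and 2 lower (8.13%). Pkm, a pyruvate kinase, was at 206, 453, 209 and 210 CPM in KO and 146, 145, 171 and 174 CPM in HET replicates, without overlap (0.78, SE 0.20, edgeR adjusted p = 0.0941). Eno2, the neuronal enolase, was at 43.1, 981, 177 and 52.5 CPM against 9.40, 15.2, 105 and 176 CPM. Dissociation and immediate early genes had a median of -0.50 and of -0.07 without the 2 libraries, with Jun, an AP-1 factor, at 841, 316, 905 and 689 CPM against 1123, 1330, 981 and 994 CPM, without overlap (-0.91, SE 0.22, adjusted p = 0.0941). Interferon response genes had a median of -0.13 and of 0.41 without the 2 libraries. In the latter fit 4 of 27 had an unadjusted p under 0.05 with higher values (6.05% over all genes). Medians for the other lists, main and then without the 2 libraries, were -0.39 and -0.11 for complement, -0.40 and 0.07 for inflammatory cytokines and NF-kB targets, -0.24 and 0.16 for antigen presentation, 0.40 and 0.19 for cholesterol synthesis, and -0.13 and -0.05 for sphingolipid metabolism. Heat shock genes stood at 0.09 and 0.17, cell cycle genes at 0.08 and -0.10, lipid efflux at -0.02 and 0.00, lysosome positioning at -0.07 and 0.04, and progranulin trafficking at -0.35 and -0.10.

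**Figure D5:**
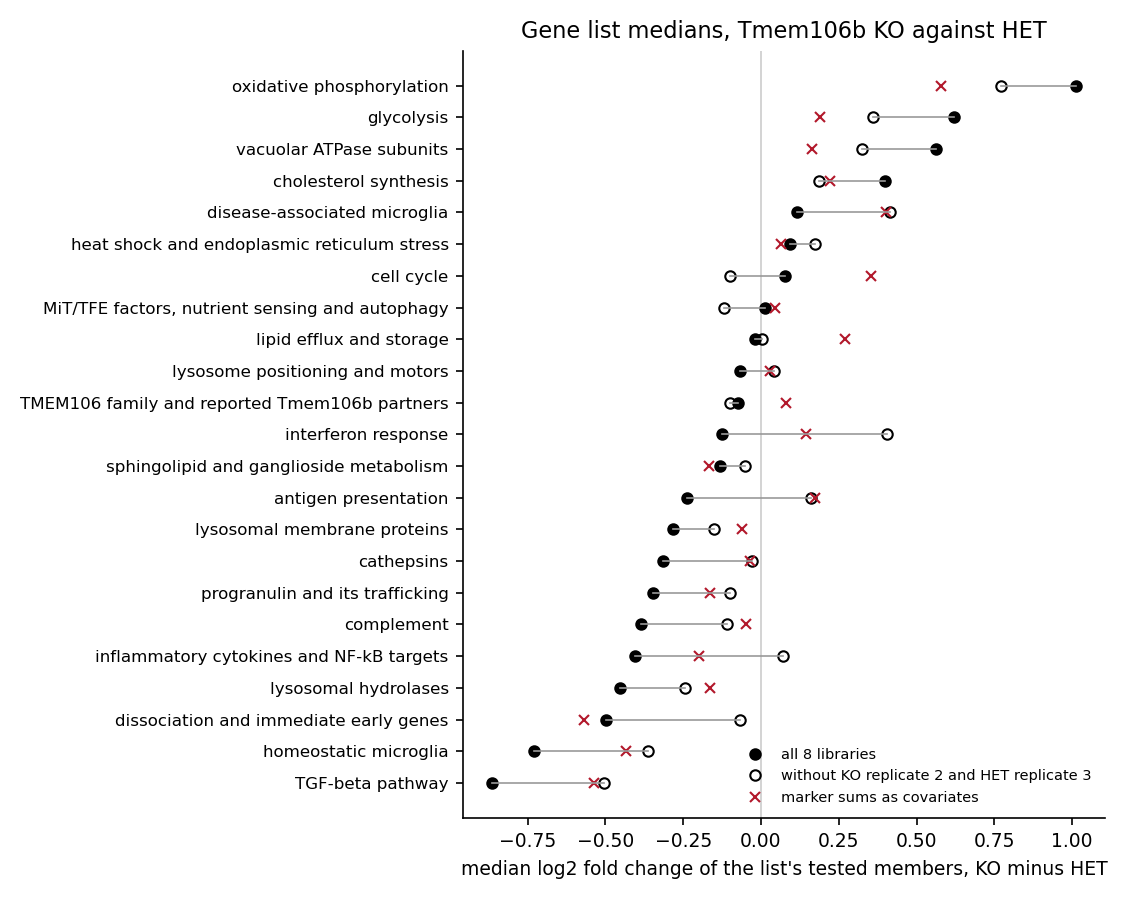
Median log2 fold change (KO minus HET) of the tested members of 23 gene lists, with all 8 libraries (filled), without KO replicate 2 and HET replicate 3 (open) and with marker sums as covariates (crosses). Oxidative phosphorylation is highest (1.01, then 0.77) and the TGF-beta pathway lowest (-0.86, then -0.50), and most medians move toward 0 without the 2 libraries.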

How the data were processed

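Poly(A) RNA was turned into SMART-Seq v4 cDNA and Nextera XT libraries, per the labels' protocols. The authors aligned reads with GSNAP to GRCm38, per the submitters' processing notes. Each deposited file lists a raw count and an RPKM for every Ensembl gene, per the file headers; the deposited RPKM values entered no test. The counter, its annotation and its treatment of strand are not given in the sources used here, so overlapping genes and close paralogs may share reads. Of 52636 genes, 21371 passed edgeR's filterByExpr over 7 genotype groups. The 26 libraries were fitted together with group, sex and dissection in edgeR 4.0.16 (robust quasi-likelihood, TMM; R 4.3.3), with Benjamini-Hochberg adjustment and a threshold of 0.05. DESeq2 1.42.0 and limma 3.58.1 were alternatives. The code was tested on simulated counts. Named genes were Tmem106b and Grn, the 10 higher and 10 lower genes of smallest p past 0.5 on the log2 scale with a mean of 5 CPM in the higher group, up to 4 members of each pathway list by p, up to 3 of each marker list by level and the 8 nearest genes; Tmem106a, Tmem106c, Chmp2b, Atp6ap1, Ctsd, Psap, Apoe, Trem2, Tyrobp, Itgax, Clec7a, Axl, Lpl, P2ry12, Mcoln1, Tcirg1, Tfeb, Tfe3, Mitf were added for their known roles, with their values known. The members and lists were chosen with earlier results of these data known. Gene positions and widths came from GENCODE (GRCm38) and upstream sequence from RefSeq. The libraries carry no molecular identifiers, so counts are reads.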

Additional observations from a re-analysis of the deposited data

Results flagged for a closer look

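Groups of 4 libraries were checked for 84 genes and 19 marker sums, 206 groups in all. In 33 of them 1 library's gap to the others was a large part of the group's range, 24 times KO replicate 2 and 6 times HET replicate 3. The cut, 0.829 of the range, flags about 1 in 20 groups of independent, normally distributed values. CPM values need not be normal, and the groups reuse the same libraries. The count of 33 therefore cannot be judged against that rate. Among genes, KO replicate 2 stood high for Ppp1r1a (37.1 CPM), Tmem158 (81.8 CPM), Thy1 (23.6 CPM), Bex1 (139 CPM), Nxph1 (114 CPM), Thsd7a (34.1 CPM), Eno2 (981 CPM), Pkm (453 CPM), Rragb (251 CPM) and St8sia1 (24.3 CPM). It also stood high for the proton pump subunits Atp6v1d (374 CPM) and Atp6v1g2 (678 CPM), for Map6 (200.1 CPM), a microtubule protein of neurons, and for Ap2m1 (73.1 CPM), an endocytic adaptor. It stood low for Ago3 (6.46 CPM) and Npc1 (27.3 CPM). HET replicate 3 stood high for Atp5j (99.4 CPM) and Cldn5 (145 CPM), a tight junction protein of endothelium, and low for Ago3 (22.5 CPM), Clec7a (29.7 CPM) and St8sia1 (1.66 CPM). HET replicate 1 stood low for Tbc1d14 (199 CPM), HET replicate 2 high for Mcoln3 (0.898 CPM) and KO replicate 4 high for Sort1 (299.9 CPM).

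Among marker sums, KO replicate 2 stood high for astrocytes (1126 CPM), neurons (9467 CPM), erythrocytes (336 CPM), cerebellar neurons (477 CPM), striatal neurons (573 CPM), cortical and hippocampal neurons (303 CPM), thalamic and habenular neurons (2106 CPM) and hypothalamic neurons (223 CPM). HET replicate 3 stood high for endothelial cells (936 CPM). The part of these sums in the values of single genes was not tested.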

How the results depend on the processing

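No paired analysis was possible because the labels give no replicate numbers. The count of 0 genes called by edgeR became 1964 with DESeq2, 746 with limma-voom and sample quality weights, and 0 to 1128 when 1 library was left out; the 1128 came without KO replicate 4, and 1 gene, Tmem106b, was called without HET replicate 4. Called members of the pathway lists went from 0 to 71, 39 and 0 to 62 in the same settings. Over all genes tested, the shares called were 9.19%, 3.49% and, without KO replicate 4, 5.29%. The counts of members are not read as a result about the lists. The log2 fold change of Tmem106b was -1.14 with DESeq2 and -1.07 with quality weights, both past the threshold, and -1.37 to -1.001 with 1 library left out. Its adjusted p in these leave-one-out fits ran from 0.0135 to 0.399. The cause of these differences was not tested. All other settings tried kept 0 calls. The permutation test of marker sums could not call a list in any setting, so it bears on none of this. Of 598 list medians under other settings, 31 moved by more than 1 SD and 78 changed sign, among them 13 of 26 for lipid efflux and 9 of 26 each for interferon response, antigen presentation and the TMEM106 family; of 4919 values of named genes 178 changed sign. Depth limits mainly genes of a few CPM, such as Mcoln3, which was at 0 CPM in KO replicate 2 and in HET replicate 3.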

Other observations

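For 163 of 21371 genes (0.763%) all 4 KO libraries lay above the 4 HET and the 3 WT libraries, and for 72 (0.337%) they lay below all 7. Of these, 46 and 56 had a mean of at least 5 CPM in KO or HET. The genes named here are the 5 protein-coding genes each way with the most extreme ratio of means, a rule chosen after the values were seen. Gpnmb had the highest ratio. Sdhaf3, an assembly factor of succinate dehydrogenase, was at 6.24, 26.98, 10.4 and 7.42 CPM in KO and at 2.53 to 5.92 CPM in the other 7 libraries. St8sia1, the synthase of ganglioside GD3, was at 5.17, 24.3, 5.17 and 8.23 CPM against 1.33 to 5.11 CPM. Mif, a cytokine and tautomerase, was at 12.99, 20.6, 9.95 and 10.4 CPM against 3.997 to 8.36 CPM. Npm1, the nucleolar chaperone nucleophosmin, was at 8.74, 8.002, 8.85 and 6.65 CPM against 3.47 to 5.72 CPM. KO replicate 2 was the highest library for Sdhaf3, St8sia1 and Mif but not for Gpnmb or Npm1.

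Among the genes below, Wdr62, a centrosome protein, was at 4.78, 0, 2.65 and 4.42 CPM in KO and at 6.32 to 14.6 CPM in the other 7 libraries. Zbtb5, a zinc finger protein, was at 0.828 to 8.54 CPM against 11.2 to 18.96 CPM, and Anks6, an ankyrin repeat protein of cilia, ranged from 2.01 to 21.1 CPM in KO against 24.3 to 40.0 CPM. Rcbtb1 was at 19.04 to 40.8 CPM against 46.4 to 142 CPM. Wars2, the mitochondrial tryptophanyl-tRNA synthetase, was at 1.38 to 8.17 CPM against 9.78 to 17.0 CPM. None of these genes passed in edgeR. The median exonic width was 1332.5 bases among the 46 genes above, 4616.5 among the 56 below and 3355.5 among all genes at that level, the same order as in the width pattern of the report.

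On chromosome 6, which holds Tmem106b, lay 6 of the 46 genes above and 4 of the 56 below, Tmem106b included, against 615 of 11856 genes (5.19%) at that level. Among them, Sdhaf3 spans 6956004 to 7042979, Gpnmb 49036546 to 49070929 and St8sia1 142821545 to 142964452 (GRCm38). These positions are given as values only.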
